A study of Mus musculus with 4 samples.

Results

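The NMDA and delta glutamate receptor subunit genes were followed across spatial transcriptomes of mouse brain organoids. The group was set by name: GRIN1, GRIN2A, GRIN2B, GRIN2C, GRIN2D, GRIN3A, GRIN3B and GRID1, which are 8 of the 22218 gene symbols listed in any section, and all 8 were listed in all 4 sections. The organoids came from CARLIN/Cas9 embryonic stem cells, a line that carries a lineage barcode together with Cas9, seeded at 5000 cells per well. All groups passed through the same induction steps, with the kinase inhibitor SB 431542 at first and Matrigel later, and a medium with B27 lacking vitamin A, and all sections were made at 3 months. The groups parted at day 9. The VitaminA group then received B27 with vitamin A at 2%, the ATRA group all-trans retinoic acid at 1 µM, the BMS753 group BMS753 at 1 µM, and the BMS961+BMS641 group that pair of compounds at 0.1 µM, where the labels leave unclear whether this is each compound or their sum. ATRA acts on all retinoic acid receptors and BMS753 on the alpha type, while BMS961 and BMS641 act on the gamma and beta types. The ligand groups thus differ in dose as well as in compound. Several organoids shared a mold, and a section can hold more than 1 of them.

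NMDA receptors are glutamate-gated cation channels of 4 subunits that let calcium into neurons when glutamate and a co-agonist, glycine or D-serine, are bound while the membrane is depolarised. GRIN1 encodes the subunit present in every such receptor, which binds the co-agonist. The GRIN2 genes encode glutamate-binding subunits that set the kinetics and the magnesium block of the channel, and in the brain GRIN2B and GRIN2D are prominent before birth while GRIN2A and GRIN2C gain ground later. GRIN3 subunits bind glycine and lower calcium entry. GRID1 encodes a delta receptor, a related protein that works mainly as a synaptic organiser held by cerebellins.

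There was 1 section per group, with 552 spots in VitaminA, 593 in ATRA, 365 in BMS961+BMS641 and 469 in BMS753. There are no replicates, no difference between treatments could be tested, and the ranges given below run over the 4 quadrants of a section or the 16 pairs of quadrants of 2 sections, which are not replicates. A spot is a small area that can hold several cells. The deposited value is a signal, normalised by the authors so that all spots of a section share the same sorted values up to a factor. Within a spot many values form runs that rise with the order of genes in the file, and each run was taken here as 1 set of tied ranks, which the sources used here do not state. Zeros and the lowest such run are called the lowest class here, and a gene above it is called detected. The classes above it are numbered upwards from 1. The level of a gene is its mean signal over spots as ppm of the signal summed over genes. Sequencing depth is unknown, and the median spot held 4659 detected genes in VitaminA and 4462 in BMS961+BMS641, but 3388 in ATRA and 3330 in BMS753. In spots and in sections alike, fewer cells of a type and less RNA per cell cannot be told apart.

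Promoters are shown for GRIN1, GRIN2C and GRIN2D because these members had their highest level in the VitaminA section and, unlike GRIN3B, enough signal for a ratio between sections. RefSeq promoter windows were found for 4 of the 8 members, which are these 3 and GRIN3B. Each sequence below is the 250 bases before the start site, 5′ to 3′ on the strand of the gene, from GRCm38.p6, a later build than the mm9 of the deposited data. GRIN1 lies at chr2:25319188-25319437 on the minus strand, GRIN2C at chr11:115267244-115267493 on the minus strand, and GRIN2D at chr7:45866682-45866931 on the minus strand. Capitals mark matches to AGGTCA, the core motif that retinoic acid receptors and other nuclear receptors bind, and to GGGCGG, the GC box, on either strand.
GRIN1: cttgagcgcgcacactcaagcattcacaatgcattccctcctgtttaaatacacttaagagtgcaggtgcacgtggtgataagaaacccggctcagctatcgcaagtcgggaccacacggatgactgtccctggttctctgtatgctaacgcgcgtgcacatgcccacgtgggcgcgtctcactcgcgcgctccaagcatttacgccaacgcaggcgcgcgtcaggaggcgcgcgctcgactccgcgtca
GRIN2C: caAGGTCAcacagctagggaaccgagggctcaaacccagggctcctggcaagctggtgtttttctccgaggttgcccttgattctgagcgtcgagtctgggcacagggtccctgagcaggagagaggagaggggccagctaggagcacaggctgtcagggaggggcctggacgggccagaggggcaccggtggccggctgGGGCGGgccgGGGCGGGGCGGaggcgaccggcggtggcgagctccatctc
GRIN2D: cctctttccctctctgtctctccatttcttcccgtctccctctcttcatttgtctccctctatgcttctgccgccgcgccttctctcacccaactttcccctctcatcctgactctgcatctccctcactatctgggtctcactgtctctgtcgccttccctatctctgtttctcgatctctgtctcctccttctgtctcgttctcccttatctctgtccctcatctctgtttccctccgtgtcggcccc
The GRIN2C window held 1 AGGTCA, which starts at base 3 of the window, and 3 copies of GGGCGG, of which the last 2 share 1 base. Of 32851 RefSeq windows of this length, 14.0% hold AGGTCA and 32.7% hold GGGCGG. The windows of GRIN1, GRIN2D and GRIN3B held neither motif. The paired motifs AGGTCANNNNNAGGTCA and AGGTCANNAGGTCA were in none of the 4 windows and in 0.00913% of all windows each. The GRIN1 window had 27 CG pairs, GRIN2C 15 and GRIN2D 9, beside a median of 6 over all windows. These matches describe letters and were not tested as binding sites.

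GRIN1, the subunit that no NMDA receptor lacks, was sparse in every section and least sparse in VitaminA. Spots with GRIN1 were 157 of 552 in VitaminA (28.4%), 46 of 593 in ATRA (7.76%), 38 of 469 in BMS753 (8.10%) and 67 of 365 in BMS961+BMS641 (18.4%). Exact 95% binomial intervals, which cover counting error only and take spots as independent, were 24.7 to 32.4%, 5.73 to 10.2%, 5.80 to 10.95% and 14.5 to 22.7% in the same order. Its level was 15.8 ppm in VitaminA, 3.76 ppm in ATRA, 5.57 ppm in BMS961+BMS641 and 3.07 ppm in BMS753. The lowest VitaminA quadrant, at 12.4 ppm, lay above the highest quadrant of any ligand section, which was 6.91 ppm in BMS961+BMS641. ATRA quadrants ran from 2.43 to 5.01 ppm and BMS753 quadrants from 2.22 to 4.20 ppm, so these sections overlapped each other. Most GRIN1 detections were in the first class above the lowest, 129 of 157 in VitaminA, 44 of 46 in ATRA, 53 of 67 in BMS961+BMS641 and 37 of 38 in BMS753. In RefSeq the span of GRIN1 overlaps those of Lrrc26 and Grin1os, and since the strand of counting is not given in the sources used here, their signal cannot be told apart.

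GRIN2B, the subunit typical of young forebrain neurons, was the most widely detected NMDA receptor gene, and its level was highest in ATRA. Detection reached 90.2% of spots in VitaminA, 89.7% in ATRA, 86.6% in BMS961+BMS641 and 76.5% in BMS753. Its level was 198 ppm in VitaminA, 306 ppm in ATRA, 149 ppm in BMS961+BMS641 and 203 ppm in BMS753. ATRA quadrants spanned 235 to 372 ppm and overlapped BMS753 quadrants, at 155 to 245 ppm, but lay above the VitaminA quadrants, at 190 to 208 ppm, and the BMS961+BMS641 quadrants, at 118 to 168 ppm. Class 3 or higher held GRIN2B in 57.8% of ATRA spots, 51.3% of VitaminA spots, 52.1% of BMS961+BMS641 spots and 35.0% of BMS753 spots.

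GRIN2A, which joins receptors as synapses mature, came next in detection among the GRIN2 genes. Detection was in 78.8% of spots in VitaminA, 59.9% in ATRA, 71.2% in BMS961+BMS641 and 68.4% in BMS753. Its level was 141 ppm in VitaminA, 104 ppm in ATRA, 110 ppm in BMS961+BMS641 and 186 ppm in BMS753. The BMS753 quadrants, 171 to 213 ppm, lay above all quadrants of the other sections, the highest of which was 148 ppm in VitaminA. That order is of levels before the shift of all genes is taken off, and it is gone after it, as given below.

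GRIN2D, a subunit of slow receptors found early in development and in some interneurons, was highest in VitaminA. It was detected in 326 of 552 spots in VitaminA (59.1%), 25.8% of spots in ATRA, 37.3% in BMS961+BMS641 and 32.0% in BMS753. The exact 95% interval was 54.8 to 63.2% in VitaminA and reached at most 42.4% elsewhere, in BMS961+BMS641. These intervals too cover counting error only, take spots as independent and do not measure spread between organoids or sections. Its level was 83.0 ppm in VitaminA, 26.8 ppm in ATRA, 31.8 ppm in BMS961+BMS641 and 51.3 ppm in BMS753. The lowest VitaminA quadrant, at 77.2 ppm, lay above every quadrant of the other sections, the highest being 72.3 ppm in BMS753. Between 9.28% and 10.5% of the GRIN2D signal in the ligand sections came from the lowest class, against 0.500% in VitaminA. GRIN2D was detected in as few as 13.7% and as many as 48.6% of spots in single BMS753 quadrants, the widest range of any member and section.

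GRIN2C, best known from the cerebellum and from astrocytes, was sparse. Spots with GRIN2C were 34.6% of all in VitaminA, 19.7% in ATRA, 30.7% in BMS961+BMS641 and 16.2% in BMS753. Its level was 19.6 ppm in VitaminA, 8.64 ppm in ATRA, 11.4 ppm in BMS961+BMS641 and 7.17 ppm in BMS753. VitaminA quadrants, from 15.1 to 24.0 ppm, lay above those of the other sections, which reached at most 13.1 ppm, in BMS961+BMS641.

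The GRIN3 genes behaved unlike each other. GRIN3A, the glycine-binding subunit of developing neurons, was detected in 59.1% of spots in VitaminA, 61.4% in ATRA, 58.1% in BMS961+BMS641 and 47.3% in BMS753. Its level was 68.0 ppm in VitaminA, 89.1 ppm in ATRA, 51.0 ppm in BMS961+BMS641 and 68.7 ppm in BMS753. ATRA quadrants, 80.2 to 95.8 ppm, were above all others, and BMS961+BMS641 quadrants, 47.1 to 55.5 ppm, were below those of VitaminA, at 63.0 to 72.2 ppm. GRIN3B, a subunit described mainly in motor neurons, was near the limit of detection. It was detected in 36 spots in VitaminA, 2 in ATRA, 15 in BMS961+BMS641 and 9 in BMS753. Its level of just under 5 ppm in VitaminA and lower elsewhere did not reach the filter of 5 ppm in either section of any comparison, and no ratio is given for it. Its span overlaps that of Tmem259, which is listed in every section.

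GRID1 was nearly everywhere. Spots with GRID1 were 99.3% of all in VitaminA, 94.3% in ATRA, 98.1% in BMS961+BMS641 and 94.2% in BMS753. Its level was 616 ppm in VitaminA, 463 ppm in ATRA, 540 ppm in BMS961+BMS641 and 634 ppm in BMS753, above at least 98.4% of all genes of a section. ATRA quadrants, 396 to 501 ppm, lay below those of VitaminA and BMS753 and overlapped those of BMS961+BMS641. That order too is of levels before the shift of all genes is taken off, and it is gone after it. The ratio of GRID1 was then -0.08 in ATRA over VitaminA and -0.26 in BMS753 over ATRA, with quadrant pairs on either side of 0 in both. Together the 8 members took 1146 ppm of the signal in VitaminA, 1002 ppm in ATRA, 903 ppm in BMS961+BMS641 and 1155 ppm in BMS753.

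**Figure D1:**
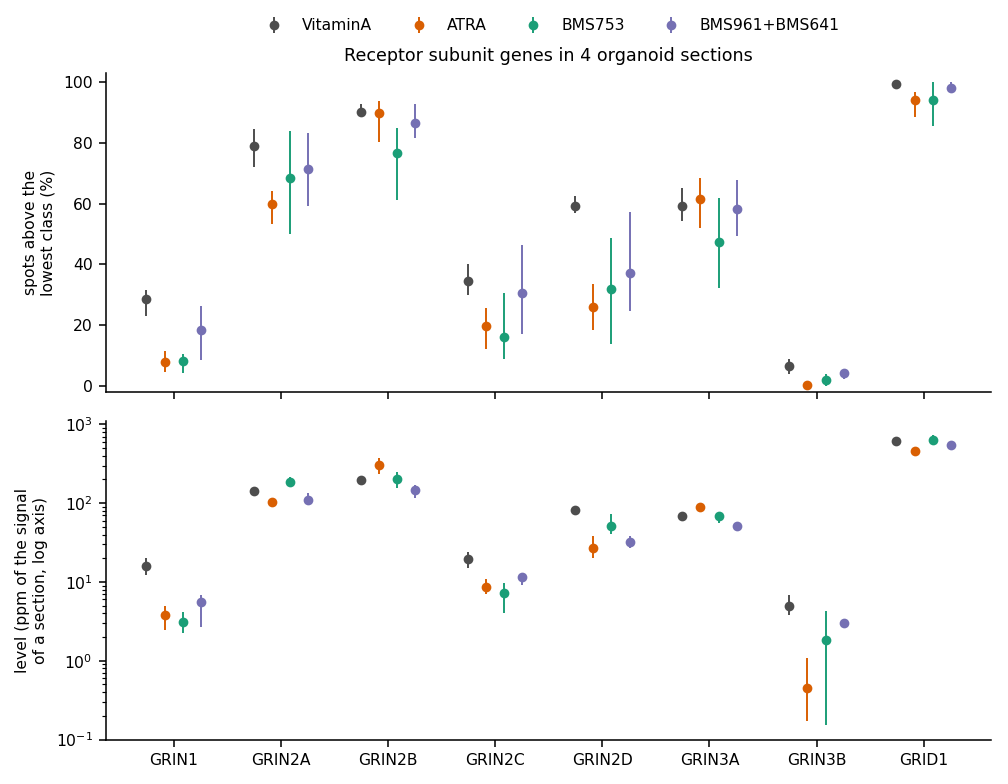
Percent of spots in which a gene was above the lowest class (top) and level in ppm of the signal of a section on a log axis (bottom) for the 8 genes. Points are sections, 1 per group, and bars run from the lowest to the highest of 4 quadrants; GRIN1, GRIN2C and GRIN2D are highest in VitaminA, while GRIN2B and GRIN3A are highest in ATRA by level.

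Detection here followed gene length, so levels of different genes were also set side by side per kb of genomic span. Whether span is the right length for this signal was not tested. Over all genes the Spearman correlation between RefSeq genomic span and percent of spots was between 0.799 and 0.837 in the 4 sections, and over the 8 members it was between 0.952 and 0.976. The correlations are across genes, which are not independent replicates. GRID1 spans 763 kb, GRIN2B 460 kb, GRIN2A 428 kb and GRIN3A 184 kb, while GRIN2D spans 39.3 kb, GRIN1 28.0 kb, GRIN2C 18.1 kb and GRIN3B 6.79 kb. Per kb of span the order of the members changed. GRIN2D, at place 4 or 5 by level, became the highest member in every section, at 2.11 ppm per kb in VitaminA, 0.681 in ATRA, 0.809 in BMS961+BMS641 and 1.30 in BMS753. In ATRA its quadrants overlapped those of GRIN2B, which had 0.665 ppm per kb, GRID1, GRIN2C and GRIN3A, and in BMS961+BMS641 those of GRID1, at 0.708, and GRIN2C. GRIN2A, at place 3 by level in every section, was last of the 8 in VitaminA, at 0.329 ppm per kb. GRIN1 had 0.565 ppm per kb in VitaminA, above GRIN2B at 0.430 though with overlapping quadrants, but 0.134 in ATRA, 0.199 in BMS961+BMS641 and 0.110 in BMS753, each less than GRIN2B in the same section.

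**Figure D2:**
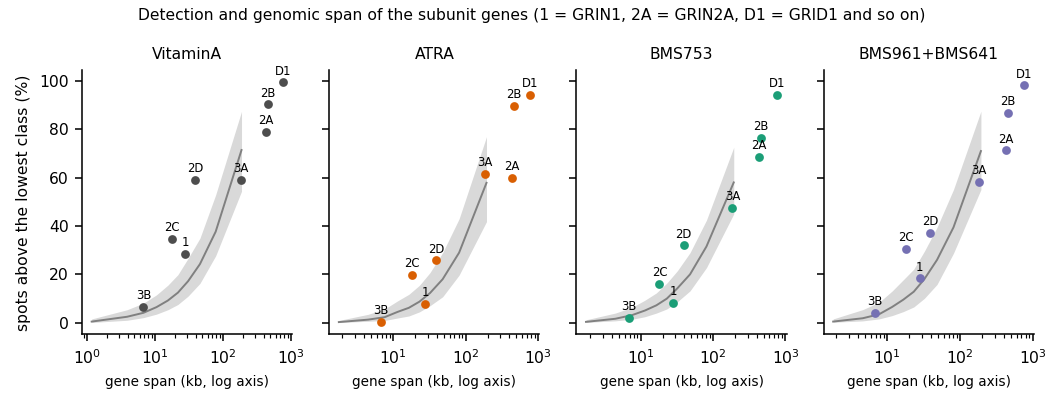
Percent of spots above the lowest class against genomic span in kb on a log axis, 1 panel per section. Points are the 8 members, the grey line is the median over genes binned by span (10 bins) and the band its quartiles. In VitaminA GRIN2C and GRIN2D lie above the band, at 34.6% and 59.1%. GRIN2C also lies above it in each ligand section, at 19.7% in ATRA, 30.7% in BMS961+BMS641 and 16.2% in BMS753. GRIN2D does so in BMS753, at 32.0%, and BMS961+BMS641, at 37.3%, and is near the upper edge of the band in ATRA, at 25.8%. GRIN1 is above the band in VitaminA, at 28.4%, and below the line in ATRA and BMS753.

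Ligand sections were then compared with VitaminA, which asks how subunit levels differ between supplement and ligands. The 3 comparisons share the VitaminA section. Ratios are log2 of levels with 1 ppm added, less the median over all genes that reached 5 ppm in at least 1 of the sections. That median was -0.33 for ATRA, 0.31 for BMS753 and -0.25 for BMS961+BMS641 over VitaminA, and 0.71 for BMS753 over ATRA, 0.04 for BMS961+BMS641 over ATRA and -0.64 for BMS961+BMS641 over BMS753. A gene counts as past the fold when it is at least 2-fold higher or lower after this step. In ATRA over VitaminA, 2 of 7 measured members were past the fold, both lower, and the median member was at -0.10. Of all 14794 genes compared, 14.6% were that much lower and 12.1% that much higher. In BMS753 over VitaminA, 2 of 7 were past the fold, both lower, with a median of -0.29, beside 14.8% of all genes lower and 9.06% higher. In BMS961+BMS641 over VitaminA, 2 of 7 were lower by that much and the median was -0.15, beside 14.3% of all genes lower and 13.6% higher. With 7 members measured, a count of 2 lies close to the shares of all genes, so these counts say little of the family as a whole.

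GRIN1 was past the fold in all 3 comparisons. Its levels of 3.76 ppm in ATRA and 3.07 ppm in BMS753 were below the filter of 5 ppm. There it was measured only through VitaminA, where its level was highest. Its ratio was -1.49 in ATRA (-2.27 to -0.65 over quadrant pairs), -2.35 in BMS753 (-3.03 to -1.67) and -1.10 in BMS961+BMS641 (-2.32 to -0.19). All 16 quadrant pairs were below 0 in each. The ratio in BMS961+BMS641 was -0.83 with the lowest class at 0 and -0.70 with class numbers in place of the signal, and that in ATRA was -0.99 with 5 ppm added. The ratio in BMS753 was -1.61 with class numbers and -1.62 with 5 ppm added. Without the top and bottom 5% of GRIN1 values the ratios were larger, at -2.95 in ATRA, -1.79 in BMS961+BMS641 and -3.63 in BMS753. GRIN1 was detected in 7.76% of ATRA spots and 8.10% of BMS753 spots, against 28.4% in VitaminA. That step thus took away most detections in ATRA and BMS753, and its larger ratios are no check on the others. Among spots of like gene number, those with 3000 to 5000 genes detected, GRIN1 was detected in 23.2% in VitaminA, 9.26% in ATRA, 14.3% in BMS961+BMS641 and 11.5% in BMS753. The ratios there were -0.83 in ATRA and -0.39 in BMS961+BMS641, both short of the fold, and -1.27 in BMS753. In those spots the VitaminA section had a median of 4054 genes, against 3754 in ATRA.

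GRIN2D was lower in every ligand section. Its ratio was -1.27 in ATRA (-1.68 to -0.59), -0.99 in BMS753 (-1.47 to -0.30) and -1.10 in BMS961+BMS641 (-1.52 to -0.42). The value in BMS753 just missed the fold, and all quadrant pairs were below 0 in each comparison. With class numbers the ratio was -0.88 in ATRA and -0.60 in BMS961+BMS641, and with the lowest class at 0 it was -0.96 in BMS961+BMS641. GRIN2C was at -0.76 in ATRA (-1.29 to -0.02), -1.64 in BMS753 (-2.67 to -0.67) and -0.48 in BMS961+BMS641 (-0.87 to -0.01). It was past the fold in BMS753 alone, and there at -0.85 with class numbers. All its quadrant pairs were below 0 too. In BMS961+BMS641 its ratio was -0.08 with class numbers and -0.09 in spots of like gene number.

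GRIN2B and GRIN3A were higher in ATRA without reaching the fold. GRIN2B had a ratio of 0.96 (0.44 to 1.32), above 0 in all 16 quadrant pairs, and GRIN3A 0.71 (0.42 to 0.96), also above 0 in all pairs. Setting the lowest class to 0 gave 1.25 for GRIN2B and 1.01 for GRIN3A, both past the fold. In BMS753 and BMS961+BMS641 both genes lay between -0.29 and -0.15, with quadrant pairs on either side of 0. GRIN2A, at -0.10 in ATRA, -0.09 in BMS961+BMS641 and 0.09 in BMS753, and GRID1, at -0.08, 0.07 and -0.27, had quadrant pairs on either side of 0 in all 3 comparisons.

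**Figure D3:**
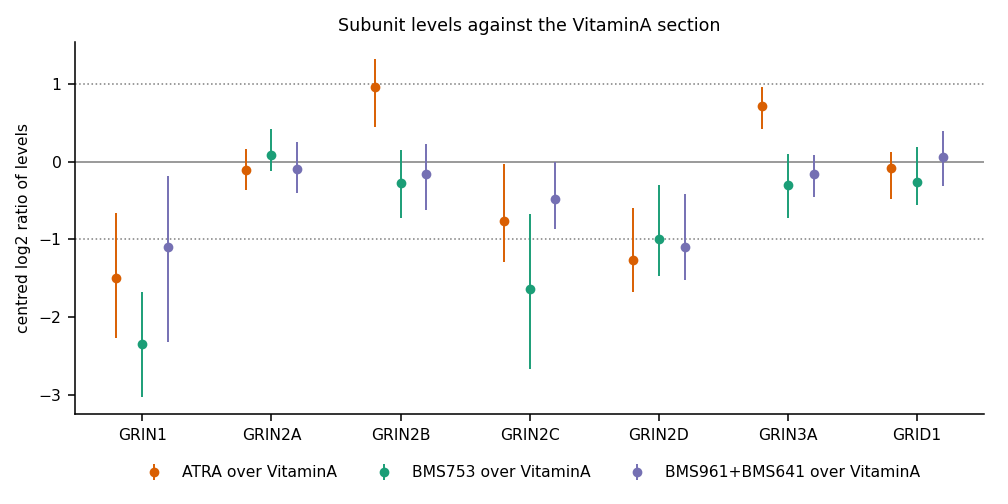
Centred log2 ratio of levels of each ligand section over VitaminA for the 7 members measured. Points are whole sections, bars run over the 16 pairs of quadrants, and dotted lines mark a 2-fold difference. GRIN1, GRIN2C and GRIN2D lie below 0 in all comparisons, and GRIN2B and GRIN3A lie above 0 in ATRA, at 0.96 and 0.71.

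The ligand sections were also set against each other. ATRA and BMS753 were given at the same dose. In BMS753 over ATRA, 2 of 6 measured members were past the fold, both lower, beside 14.6% of all genes lower and 6.77% higher. These were GRIN2B at -1.30 (-2.11 to -0.45) and GRIN3A at -1.09 (-1.63 to -0.50), with all 16 quadrant pairs below 0. Without centring on the median of all genes they were at -0.59 and -0.37. The BMS961+BMS641 pair was given at another dose, so its values are set beside the others. In BMS961+BMS641 over ATRA, 1 of 7 members was past the fold, GRIN2B at -1.08 (-1.87 to -0.36), beside 12.3% of all genes lower and 14.9% higher. In BMS961+BMS641 over BMS753, 2 of 7 were past it, both higher, beside 15.7% of all genes higher and 6.41% lower. They were GRIN1 at 1.33 (0.16 to 2.09) and GRIN2C at 1.24 (0.48 to 2.16). Without centring these were 0.69 and 0.60, and with class numbers 0.89 and 0.75. In this pair of sections GRIN1 passed the filter through BMS961+BMS641 alone, at 5.57 ppm.

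The balance between subunits was taken as ratios of levels within a section, which need no centring but do depend on how spots and signal are scaled. GRIN2B over GRIN2A, the pair whose balance turns during maturation of the brain, was 1.40 in VitaminA (1.28 to 1.52 over quadrants), 2.94 in ATRA (2.02 to 4.06), 1.35 in BMS961+BMS641 (0.885 to 1.65) and 1.09 in BMS753 (0.873 to 1.22). The ATRA quadrants lay above those of the other sections. GRIN2B made up 68.7% of the summed GRIN2 signal in ATRA, 44.8% in VitaminA, 45.4% in BMS753 and 49.2% in BMS961+BMS641. These shares are not corrected for length and serve to compare sections.
The summed GRIN2 level itself was 441 ppm in VitaminA, 446 in ATRA, 303 in BMS961+BMS641 and 448 in BMS753. GRIN2D over GRIN2B was 0.419 in VitaminA (0.389 to 0.443), 0.0875 in ATRA (0.0664 to 0.110), 0.214 in BMS961+BMS641 (0.159 to 0.267) and 0.252 in BMS753 (0.164 to 0.355). VitaminA lay above the other sections in this ratio and ATRA below them. GRIN1 over GRIN2B was 0.0800 in VitaminA and 0.0123 in ATRA, with 0.0151 in BMS753 and 0.0374 in BMS961+BMS641. With class numbers in place of the signal it was 0.113 in VitaminA, 0.0171 in ATRA, 0.0617 in BMS961+BMS641 and 0.0364 in BMS753, so the order of sections was kept while the gap between ATRA and BMS753 widened. GRIN3A over GRIN2B kept between 0.291 and 0.344 in the 4 sections, with overlapping quadrants.

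**Figure D4:**
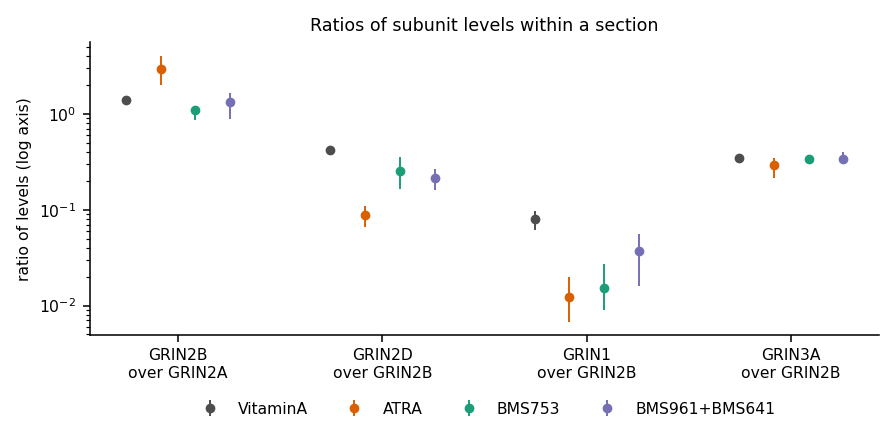
Ratios of levels between members within a section, on a log axis, uncorrected for length. Points are sections and bars run over 4 quadrants; GRIN2B over GRIN2A is highest in ATRA, at 2.94, GRIN2D over GRIN2B and GRIN1 over GRIN2B are highest in VitaminA, and GRIN3A over GRIN2B differs little.

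Detection of subunits in the same spot followed how many genes the spot held. The median spot held 5 of the 8 members in VitaminA and 4 in each ligand section. The Spearman correlation of that number with the genes detected per spot was 0.612 in VitaminA, 0.690 in ATRA, 0.732 in BMS961+BMS641 and 0.742 in BMS753, over spots that share a library. At least 1 GRIN2 gene was detected in 98.6% of VitaminA spots and in 91.7% to 95.6% of spots of the ligand sections. GRIN1 accompanied them in 28.7% of such spots in VitaminA, 8.23% in ATRA, 19.2% in BMS961+BMS641 and 8.60% in BMS753. In all spots GRIN1 was detected in 28.4%, 7.76%, 18.4% and 8.10% in the same order, which is close to these shares. GRIN1 without any GRIN2 gene was seen in 1 spot in VitaminA and 1 in BMS753. A GRIN2 gene was detected in 544 of 552 spots in VitaminA and 430 of 469 in BMS753, so few spots could show GRIN1 alone. Over spots, pairs among GRIN2A, GRIN2B, GRIN2D, GRIN3A and GRID1 were weakly correlated at most. The highest mean Spearman correlation over sections was 0.125, for GRIN2B with GRID1. Pairs with GRIN1, GRIN2C or GRIN3B were not computed.

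Position on the array moved with detection of the sparse members. In BMS961+BMS641 a single grid row of 14 spots had a median of 9690 genes detected, against 4360 in the other spots. GRIN1 was detected in 11 of these 14 spots and in 16.0% of the others, and GRIN2D in all 14 and in 34.8% of the others. The row at the same grid position, 50, was also the richest in ATRA and in BMS753. GRIN2D was detected there in 17 of 20 ATRA spots and in 13 of 15 BMS753 spots. Without the richest row and column of each section, GRIN1 was detected in 26.9% of spots in VitaminA, 7.16% in ATRA, 15.0% in BMS961+BMS641 and 8.07% in BMS753. The GRIN1 ratios over VitaminA were then -1.45 in ATRA, -1.11 in BMS961+BMS641 and -2.29 in BMS753. Moran's I, which is near 0 when neighbouring spots are unrelated, was at most 0.119 for any member with 8 neighbours, for GRIN2B in BMS753, and at most 0.131 with 4 neighbours, for GRIN2A in BMS753. With 8 neighbours GRIN2D in BMS753 reached 0.103, beside a median of 0.0358 over genes of like detection. Between edge and interior spots the widest gap in detection was that of GRIN3A in VitaminA, at 53.0% of edge and 63.0% of interior spots, where edge spots had a median of 4251 genes detected and interior spots 4941.

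**Figure D5:**
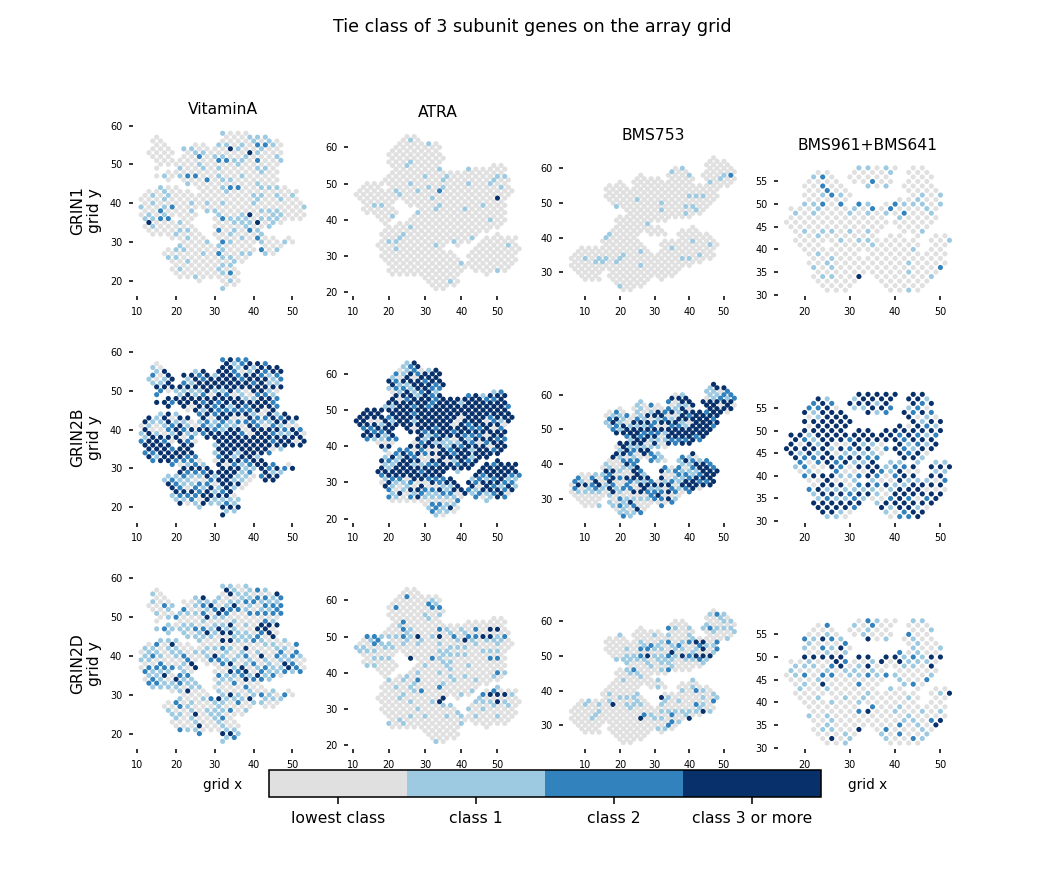
Tie class of GRIN1, GRIN2B and GRIN2D in each spot, drawn at its position on the array grid (grid units), 1 column per section. Darker points are higher classes; GRIN2B is found over whole sections, GRIN1 and GRIN2D are scattered, and 1 grid row of BMS961+BMS641 stands out, with GRIN2D in all 14 of its spots.

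The genes most like each member over spots were found for the 5 members detected in at least 20% of spots everywhere. By mean Spearman correlation over the 4 sections, GRID1 had among its 3 genes PRDM11 and USP46, at 0.300 and 0.297. GRIN2B had VCL, OGT and MSN, at 0.199, 0.184 and 0.181. The first for GRIN2D was RARG at 0.162, for GRIN3A UTRN at 0.156 and for GRIN2A MAGI2, which encodes a synaptic scaffold, at 0.122. Correlations of this size in sparse signals that share depth are no finding.

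Other genes of the synapse were counted with the same fold. Of the post-synaptic scaffold and signalling genes, 21 of 22 were measured. Of these, 1 was higher and 1 lower in ATRA over VitaminA, 0 in BMS753, and 3 were higher in BMS961+BMS641, with medians of -0.09, -0.30 and 0.01. DLGAP1, a scaffold protein gene, had 675 ppm in VitaminA, 2344 in ATRA, 387 in BMS961+BMS641 and 679 in BMS753, a ratio of 2.13 in ATRA. SHANK3, another scaffold gene, and FYN, whose kinase phosphorylates GRIN2 subunits, had ratios of 1.67 and 1.90 in BMS961+BMS641. Of the genes that supply the co-agonist, 11 of 12 were measured, with 2, 1 and 1 higher and 2, 3 and 3 lower in ATRA, BMS753 and BMS961+BMS641. PSPH, which makes serine, had 216 ppm in BMS961+BMS641 and 19.4 ppm in VitaminA, a ratio of 3.66. DAO, which breaks down D-serine, had a ratio of 1.86 in ATRA, and SLC1A4, a transporter of neutral amino acids such as serine, had -2.62 in BMS753 and -2.36 in BMS961+BMS641. Of the delta receptor partners, 6 of 10 were measured and 0 were past the fold in any comparison with VitaminA. Of the transport genes, 7 of 8 were measured, with 1 higher and 1 lower in ATRA, 2 lower in BMS753, and 1 higher and 2 lower in BMS961+BMS641. NETO2, an auxiliary protein gene of kainate receptors, had 2.53 in ATRA and 1.34 in BMS961+BMS641. CASK, a scaffold of the complex that carries NMDA receptors, had -1.28 in BMS753 and -1.54 in BMS961+BMS641. Of the glutamate release and packaging genes, 9 of 10 were measured, with 1 higher and 2 lower in ATRA, 2 lower in BMS753 and 1 lower in BMS961+BMS641. SYP, a synaptic vesicle protein gene, had 99.7 ppm in VitaminA and 4.32 ppm in ATRA, 4.28 in BMS961+BMS641 and 10.1 in BMS753, ratios of -3.91, -4.00 and -3.49. SYT1, the calcium sensor gene of vesicle release, went the other way, at 1.13 in ATRA, 0.83 in BMS961+BMS641 and 0.66 in BMS753, and SNAP25, a gene of the fusion machinery, was at -1.12, -0.86 and -1.67.

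The brain label and the cells a spot could hold were checked by markers. All 15 pan-neuronal genes were listed in every section, and their median detection was 51.6% of spots in VitaminA, 28.3% in ATRA, 41.1% in BMS961+BMS641 and 28.1% in BMS753. That order of sections, VitaminA first and BMS961+BMS641 next, is also the order of GRIN1 and GRIN2D detection and of genes detected per spot. Ratios of both genes in spots of like gene number are given above. The part of neuronal detection or of gene number per spot in the values of GRIN1 and GRIN2D was not tested. The summed level of the neuronal list ran the other way between VitaminA, at 1223 ppm, and BMS961+BMS641, at 1580 ppm, where STMN2, a gene of growing axons, alone had 533 ppm. Against VitaminA, 2 of the 15 neuronal genes were higher and 4 lower past the fold in ATRA, 2 and 1 in BMS961+BMS641, and 1 and 5 in BMS753, with medians of 0.12, -0.45 and -0.35. STMN2 had ratios of 0.17 in ATRA, 5.38 in BMS961+BMS641 and 1.13 in BMS753. ELAVL4, an RNA-binding protein gene of neurons, had ratios of -2.22 in ATRA, -0.45 in BMS961+BMS641 and -2.23 in BMS753. Of the 9 astroglia genes measured, of 11 listed, 0 were higher and 3 lower in ATRA, 2 and 2 in BMS961+BMS641, and 0 and 3 in BMS753, and their median detection was 24.5% of spots in VitaminA, 9.61% in ATRA, 38.4% in BMS961+BMS641 and 11.5% in BMS753. SLC1A2, an astroglial glutamate transporter gene, had ratios of -1.03 in ATRA, -1.54 in BMS961+BMS641 and -1.07 in BMS753. SOX9, a transcription factor gene of glia and their precursors, went the other way in BMS961+BMS641, at 1.23, with -0.38 in ATRA and -0.39 in BMS753, and NFIB, a transcription factor gene of glial development, was at 0.32 there, with -1.46 in ATRA and -1.62 in BMS753. Median detection of the other lists, over sections, was 17.1 to 23.0% of spots for the oligodendrocyte lineage, 7.25 to 11.2% for microglia and macrophages, 25.0 to 44.8% for endothelium, 16.4 to 34.8% for mesenchyme and 6.72 to 14.4% for epithelium. Among the markers of these other types that a section listed, the only case at 0% of spots was 1 of 6 epithelial genes in ATRA. In BMS753 only 5 of 6 endothelial genes were listed, and the 44.8% is their median. Of the microglia and macrophage genes, 7 of 8 were listed in every section. Genes that were not listed were not counted as 0. EPCAM, an epithelial adhesion gene, had 921 ppm in BMS961+BMS641 and at most 11.5 ppm elsewhere. The part of these cells in the levels of the subunit genes was not tested.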

How the data were processed

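The authors deposited, for each section, a table of signal by gene and spot after quantile normalisation over the spots. The submitters' processing notes name mm9 as the build. Aligner, counting and spot filter: not given in the sources used here. Rising runs of values in file order were taken as tied ranks, and the lowest run with zeros as not detected. On that reading, which the submitters do not state, levels of sparse genes hold a part set by gene order.

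Levels were mean signal as ppm, ratios used 1 ppm added and a filter of 5 ppm, and past the fold meant 2-fold. No p-value or standard error was computed, since groups have 1 section each. The members and lists were chosen with earlier results of these data known. Named were the 8 members, for 5 of them the 3 genes most like them, and up to 3 genes per list, of at least 20 ppm, with the highest ratio in size against VitaminA; of these the text gives a part, and some genes that the rule picked are left out here. Spans came from RefSeq GRCm38.p6, for 22187 of 22218 symbols, as lengths only. Steps were tested on simulated data that had the tied ranks assumed here. Changes were placed and scored only in genes of higher mean class in VitaminA. Sparse members such as GRIN1 and GRIN2C fell outside that test, which is no check on their ratios. Versions were matplotlib 3.10.9, scipy 1.17.1, pandas 2.3.3, numpy 2.4.6 and Python 3.11.15.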

Additional observations from a re-analysis of the deposited data

How the results depend on the processing

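No paired analysis was possible because each group has 1 section. Counts of members past the fold, 2 of 7 in most comparisons, rest on a few genes near the fold or the filter, and depth is unknown. Across the alternatives the 11 ratios past the fold kept their sign in all 220 values and stayed at that size in 180. The 180 are counted by size alone, whether or not the gene passed the filter of the setting. With a filter of 20 ppm, GRIN1 and GRIN2C, at most 15.8 and 19.6 ppm, were not measured, yet their values there are among the 180. The counts of members that follow do require the filter. The count for ATRA over VitaminA was 1 with 5 ppm added or a filter of 20 ppm, 5 with the lowest class at 0 or a fold of 1.5, 4 without the top and bottom 5% of spots or in spots of like gene number, and 0 at a fold of 4. For BMS753 over VitaminA it was 1 with a filter of 20 ppm or a fold of 4, and 4 with every spot scaled to the same sum or without the richest grid row and column. For BMS961+BMS641 over VitaminA it was 1 with 5 ppm added, a filter of 20 ppm, every spot scaled to the same sum or spots of like gene number, and 0 with the lowest class at 0, class numbers or a fold of 4; without a quadrant it ran from 0 to 2. For BMS753 over ATRA it was 0 without centring or at a fold of 4, and 1 with 5 ppm added, no filter, the lowest class at 0, every spot scaled to the same sum, class numbers or spots of like gene number; without a quadrant, 1 to 3. For BMS961+BMS641 over ATRA it was 0 without scaling to ppm, with a filter of 20 ppm or at a fold of 4, and 2 with no filter, in spots of like gene number or at a fold of 1.5; without a quadrant, 0 to 1. For BMS961+BMS641 over BMS753 it was 0 without centring, without scaling to ppm, with 5 ppm added, a filter of 20 ppm, every spot scaled to the same sum, class numbers or a fold of 4, and 1 without the top and bottom 5% of spots or in spots of like gene number; without a quadrant, 1 to 2. GRIN3B, just under the filter in the main setting, passed it in some settings and was then counted. Over VitaminA this was so in ATRA with the lowest class at 0 and in spots of like gene number. It was also so in BMS753 with every spot scaled to the same sum and without the richest grid row and column. In BMS961+BMS641 over ATRA, GRIN3B was counted with no filter and in spots of like gene number. Other causes were not tested, beyond the fewer genes that a stricter filter or fold leaves. Class numbers, spots of like gene number and the grid row and column were chosen after the data were seen. The top and bottom 5% of spots were picked for each gene by its own signal, so sparse genes lost much of theirs.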
